A study of Mus musculus with 6 samples.

Results

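The genes described here are Vmn2r3, Myo7b, BC018473, Myoc, Rbm24 and Ctse, 6 of the 24421 rows of a mouse liver count table. They were picked by their read counts: near 0 or low in every wild-type library and clearly present in every library from the Sesn3 knockout. Their difference between genotypes is therefore what chose them, and it is given as a description with counting intervals and no test.

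The livers came from male C57BL/6 mice aged 4 months that had eaten an atherogenic diet for 4 weeks. Of its energy 20% came from protein, 40% from fat and 40% from carbohydrate, and cholesterol (1.25%) and the bile salt sodium cholate (0.5%) were added. KO mice carried a Sesn3 knockout and WT mice did not, with 3 liver RNA samples of each genotype and 1 library per sample. The labels do not say how the Sesn3 allele was made, whether each sample came from a mouse of its own, or whether the mice were littermates.

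The members have their known sites of expression mostly outside the liver. Vmn2r3 belongs to the V2R receptors, a class of G protein-coupled receptors with a large extracellular domain that vomeronasal sensory neurons use to detect peptide pheromones, and signalling in those neurons runs through Gnao1 and the channel Trpc2. Myo7b is a motor protein of brush borders in intestine and kidney, where it sits at the tips of microvilli with Ush1c and Anks4b and helps to hold the protocadherin links Cdhr2 and Cdhr5. Myoc encodes myocilin, a secreted glycoprotein with an olfactomedin domain that is known from the trabecular meshwork and ciliary body of the eye and is also made in muscle. Rbm24 is an RNA-binding protein of heart and skeletal muscle that steers splicing and mRNA stability. Ctse encodes cathepsin E, a pepsin-like aspartic protease known from gastric epithelium and from antigen-presenting cells. BC018473 is a noncoding RNA gene by the GENCODE annotation used here.

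Vmn2r3 lies among related receptor genes, so its sequence bears on what its reads can be assigned to. The closest other transcript was that of Vmn2r7, with 89.5% identity over 2752 aligned bases. A stretch of 90 coding bases from each gene is shown to let the 2 be compared, read from GENCODE transcripts of mouse release 21, with capitals at the 9 bases that differ. The stretch covers coding bases 97 to 186 of Vmn2r3 and 103 to 192 of Vmn2r7, counted from the start codon.
Vmn2r3: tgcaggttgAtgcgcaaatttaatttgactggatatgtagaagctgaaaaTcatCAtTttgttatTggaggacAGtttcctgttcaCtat
Vmn2r7: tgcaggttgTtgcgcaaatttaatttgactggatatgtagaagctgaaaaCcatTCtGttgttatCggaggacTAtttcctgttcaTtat
Over its coding part, 430 of 2681 words of 50 bases (16.0%) in Vmn2r3 also occurred in another gene. Over all its exons the number was 550 of 17781 (3.09%), in 208 genes. Of these words 429 occurred in 12 other V2R genes or pseudogenes, and 121 occurred only in some of the 196 sharing genes outside the family, whose reads were not examined.

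The V2R relatives had almost no reads. Of the 12 V2R genes sharing 50-base words with Vmn2r3, 7 are rows analysed here, and in all 6 libraries together they held 8 counts. Vmn2r7, Vmn2r2, Vmn2r4, Vmn2r5 and Vmn2r6 had 0 counts in every library, Vmn2r-ps11 had 1, 6 and 0 in the KO libraries and 0 in each WT library, and Vmn2r1 had 1 count in all. How reads that match several genes were handled is not given in the sources used here, so a part of the Vmn2r3 count that belongs to a relative, or the reverse, was not tested. Ctse, Myo7b, BC018473 and Rbm24 shared none of their 3167, 6572, 5515 and 3487 words with another annotated gene. Myoc shared 46 of 2025 words (2.27%), all of them with Myocos, a gene on the opposite strand whose exons overlap those of Myoc by 93 bases. Myocos is not analysed here, and without a stated strand setting reads from those 93 bases cannot be told apart.

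Myoc and Rbm24 were the pair of members closest by the likeness measure given further below. The 250 bases before their RefSeq start sites (GRCm38.p6) are shown for that reason. That measure shrinks the differences of genes with few reads. The KO libraries spread more for Rbm24, with 13, 60 and 31 counts, than for Myoc, with 28, 44 and 38. The Myoc window is chr1:162638900-162639149 on the plus strand and the Rbm24 window is chr13:46418050-46418299 on the plus strand. Capitals mark a TATAAA and a CCAAT match, the latter read on the opposite strand.
Myoc: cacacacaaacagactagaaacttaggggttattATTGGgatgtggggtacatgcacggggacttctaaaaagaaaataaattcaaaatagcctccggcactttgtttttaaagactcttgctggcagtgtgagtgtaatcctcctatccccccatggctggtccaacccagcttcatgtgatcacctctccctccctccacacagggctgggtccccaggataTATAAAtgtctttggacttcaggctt
Rbm24: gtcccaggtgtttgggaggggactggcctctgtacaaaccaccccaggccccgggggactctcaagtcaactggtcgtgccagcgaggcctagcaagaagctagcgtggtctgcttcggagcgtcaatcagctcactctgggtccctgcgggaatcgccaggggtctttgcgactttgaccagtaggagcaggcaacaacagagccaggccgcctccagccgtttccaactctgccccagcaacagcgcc
The windows differ in make-up: GC content was 46.8% for Myoc and 62.4% for Rbm24, with a median of 52% over 27025 RefSeq promoters of the same length. The search covered 7 motifs on both strands. Of all 27025 promoters, 13.0% held the TATA box TATAAA, 34.5% the box CCAAT, 32.9% the GC box GGGCGG and 66.0% the E-box CANNTG. The AP-1 site TGANTCA was in 6.87% of them, the cAMP response element TGACGTCA in 1.62% and the C/EBP-ATF composite site TGATGNAA in 3.53%. No 2 of these motifs overlapped in the windows shown. Myoc held TATAAA at -26 to -21, CCAAT at -216 to -212 and CANNTG at -75 to -70 from its start site, and Rbm24 held CANNTG only, starting at -246 and -183. CANNTG was thus the 1 motif of the 7 that both windows held, and it is also the most common. The RefSeq table matched 3 of the 6 members; the third, Vmn2r3, is not printed because its window lies in an annotated exon.

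Library totals ran from 18882220 to 24098512 counts, so that 1 count stood for 0.0386 to 0.0431 CPM in the KO libraries and for 0.0523 to 0.0581 CPM in the WT libraries. CPM, the usual depth-scaled unit, rests here on library sizes after TMM scaling, which corrects for composition. Between 15359 and 15594 genes had a count in the KO libraries and between 14705 and 15093 in the WT libraries. The scaling factors also separated the genotypes, at 1.01 to 1.15 in KO and 0.856 to 0.992 in WT. Sesn3 itself had 18, 18 and 16 counts in the KO libraries and 172, 200 and 195 in the WT libraries, as the labels say.

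The receptor gene Vmn2r3 had 117, 281 and 101 counts in KO replicates 1, 2 and 3 and 0, 0 and 3 in WT replicates 1, 2 and 3. KO replicate 2 stood well above the other KO libraries, all 3 WT counts fell in 1 library, and the groups did not overlap. The level was 6.71 ± 3.59 CPM in KO and 0.0534 ± 0.0925 CPM in WT (SD, n = 3). KO libraries thus had 126 times the WT level, with a 95% counting interval of 42.8 to 612. Leaving out 1 library at a time moved this ratio between 82.1 and 147. Without WT replicate 3 no WT count remained, and the ratio was 83.0 when set against a floor of 3 counts over the group. A value set against this floor is no confidence limit. Vmn2r3 is annotated as protein coding at chr3:64257215-64289709 on the minus strand (GRCm38), with 9 transcripts and 17411 exon bases.

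The rest of the V2R family did not share this level. Of 127 V2R rows 7 had a count, with 619 counts in all 6 libraries, and Vmn2r3 supplied all but 117 of them. Vmn2r29 was the other V2R gene abundant enough to be tested, with 4, 20 and 4 counts in KO and 11, 23 and 28 in WT, a log2 difference of -1.57 (SE 0.70, edgeR adjusted p = 0.206). V1R receptors, the other vomeronasal receptor family, had 14 counts in 2 of 211 rows. A list of 15 genes held vomeronasal signalling partners and other channel and receptor genes that are not particular to vomeronasal neurons. Of these 15 genes, 6 were tested and edgeR called 0 of them (1 higher and 1 lower at an unadjusted p under 0.05, 0 higher and 1 lower by DESeq2, 0 by limma-voom), with a median log2 difference of 0.25 against 0.00 over all genes tested. Trpc2, Cnga2, Calhm1, Rtp1, Rtp2, Casr and Gprc6a had 0 counts in every library. Gnao1, chosen for mention after its values were seen, had 4, 5 and 1 counts in KO and 16, 11 and 14 in WT (edgeR adjusted p = 0.0511).

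The motor gene Myo7b had 45, 56 and 56 counts in KO and 1, 0 and 2 in WT. Its KO libraries lay close together and far above every WT library. Levels were 2.16 ± 0.255 CPM in KO and 0.0530 ± 0.0534 CPM in WT (SD, n = 3), a ratio of 39.6 with a 95% counting interval of 13.3 to 194. Because 2 of the 3 WT counts came from WT replicate 3, the ratio was 78.3 without that library, and it was 27.2 without WT replicate 2, which held none. Myo7b is annotated at chr18:31959234-32036961 on the minus strand (GRCm38), with 47 exon blocks and 6621 exon bases in 1 transcript. Gm16344 and Gm16345 lie inside it on the opposite strand, share no exon base with it and are not analysed here.

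The partners that hold Myo7b at microvillar tips were scarce in these livers or not called. Ush1c had 0, 2 and 0 counts in KO and 0, 0 and 1 in WT, Cdhr2 had 6, 0 and 10 against 4, 4 and 2, and the actin bundler Vil1 had 4, 6 and 2 against 1, 1 and 3. The other protocadherin, Cdhr5, and the scaffold Anks4b differed by 0.08 and -0.26 on the log2 scale and were not called. Calml4, a light chain that binds Myo7b, had 54, 67 and 65 counts in KO and 28, 10 and 17 in WT, a log2 difference of 1.36 that missed the threshold (edgeR adjusted p = 0.0763). These genes are named for their role beside Myo7b, after their values were seen.

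Across the 17 tested genes of the brush border list, edgeR called 1 higher and 3 lower in KO, with a median log2 difference of -0.00; over all 12945 genes 3.36% were called higher and 3.58% lower. Baiap2l1, an actin-bundling protein, rose from 25.0 ± 3.43 to 39.9 ± 5.88 CPM (edgeR adjusted p = 0.0469). The scaffolds Pdzk1 and Slc9a3r1, which anchor transporters at the apical membrane, fell from 66.6 ± 7.65 to 37.8 ± 0.105 CPM (edgeR adjusted p = 0.0118) and from 303 ± 60.0 to 141 ± 18.4 CPM (edgeR adjusted p = 0.0191), and the junction scaffold Mpdz fell 2.04-fold (edgeR adjusted p = 0.0307). Baiap2l1 was called in 1 of the 6 fits without 1 library, the one without WT replicate 2, and not by limma-voom (limma adjusted p = 0.0501), and Mpdz was not called with library size only. Without KO replicate 2 or KO replicate 3 edgeR called 0 of the 17, without KO replicate 1 it called 1, lower, without WT replicate 3 it called 2, lower, and DESeq2 called 3 in each direction. Among 15 tested unconventional myosins only Myo1c was called, 105 ± 4.59 CPM in KO and 62.4 ± 11.1 CPM in WT (edgeR adjusted p = 0.0309), and it was not called without KO replicate 1, 2 or 3 or without WT replicate 3.

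The secreted glycoprotein gene Myoc had 28, 44 and 38 counts in KO and 0, 1 and 0 in WT. The lowest KO library was still far above the single WT count. Levels were 1.51 ± 0.281 CPM in KO and 0.0194 ± 0.0335 CPM in WT (SD, n = 3), and the ratio was 83.2 with a 95% counting interval of 14.6 to 3315. Without WT replicate 2 no WT count remained, and the ratio was 19.1 against the floor of 3 counts over the group. Myoc lies at chr1:162639155-162649693 on the plus strand (GRCm38), with 3 exon blocks and 2074 exon bases.

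Other olfactomedin domain proteins were mostly not called. Of 9 tested genes edgeR called 0 higher and 1 lower, with a median log2 difference of 0.33. The called gene, Olfml1, fell from 29.8 ± 4.77 to 18.2 ± 1.39 CPM (edgeR adjusted p = 0.0360), and it was not called without KO replicate 1, 2 or 3, without WT replicate 3 or with library size only. Gldn, a gliomedin of peripheral nerve named after its values were seen, had 82, 66 and 53 counts in KO and 12, 0 and 6 in WT (edgeR adjusted p = 0.0509). Of 17 tested matrix and Wnt partners of myocilin 1 was called in each direction: the laminin chain Lamb1 rose 1.76-fold (edgeR adjusted p = 0.0226), and the secreted Wnt inhibitor Wif1 fell from 22, 13 and 26 counts to 1, 2 and 0 (edgeR adjusted p = 0.0162). Lamb1 was not called without KO replicate 1, KO replicate 2 or WT replicate 3, and Wif1 was not called without KO replicate 1, 2 or 3 or without WT replicate 3.

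The RNA-binding protein gene Rbm24 had 13, 60 and 31 counts in KO and 0, 1 and 0 in WT. The KO libraries differed most among themselves here, yet the lowest still exceeded every WT library. Levels were 1.40 ± 0.884 CPM in KO and 0.0194 ± 0.0335 CPM in WT (SD, n = 3), a ratio of 78.6 with a 95% counting interval of 13.8 to 3135. Without WT replicate 2 no WT count remained, and the ratio was 18.0 against the same floor of 3 counts. It was at most 102 in the other fits without 1 library. Rbm24 lies at chr13:46418434-46431095 on the plus strand (GRCm38), with 6 exon blocks and 3491 exon bases.

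Its closest relative Rbm38, a p53 target that stabilises mRNAs, had 100, 110 and 86 counts in KO and 91, 90 and 60 in WT, a log2 difference of -0.11 (edgeR adjusted p = 0.807). Of 21 tested splicing and RNA stability factors edgeR called 1 higher and 1 lower, with a median log2 difference of 0.10. Rbpms rose 1.69-fold (edgeR adjusted p = 0.0230) and its paralogue Rbpms2 fell 1.56-fold (edgeR adjusted p = 0.0457), both RNA-binding proteins of muscle and other tissues. Rbpms was not called without KO replicate 1 or 2, and Rbpms2 was called in 1 of the 6 fits without 1 library. Rbm24 protein is known to bind mRNAs of the p53 family and of Cdkn1a, and 13 of 22 tested genes of a p53 list were called higher and 0 lower, with a median log2 difference of 1.06. That list was drawn up with its direction in these livers known, so its count is no independent evidence. Phlda3, Zmat3, Aen and Plk2 had the smallest p of the list. Phlda3, a p53 target that restrains Akt, rose 5.02-fold (edgeR adjusted p = 0.00612) and stayed called in all 6 fits without 1 library; the count of 13 became 4, 1 and 3 without KO replicates 1, 2 and 3 and 12, 14 and 6 without WT replicates 1, 2 and 3.

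The protease gene Ctse had 343, 422 and 410 counts in KO and 29, 15 and 9 in WT. It is the exception among the 6, with reads in every WT library, and its groups did not overlap. Levels were 16.1 ± 1.59 CPM in KO and 0.956 ± 0.523 CPM in WT (SD, n = 3), a ratio of 16.8 with a 95% counting interval of 12.7 to 22.5. The ratio was 24.2 without WT replicate 1, the highest WT library, and 13.3 without WT replicate 3, the lowest. Ctse lies at chr1:131638306-131675505 on the plus strand (GRCm38), with 10 exon blocks and 3170 exon bases.

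Other aspartic proteases were not called. Ctsd, the abundant lysosomal member of the family, had 37051, 38380 and 38065 counts in KO and 20864, 10734 and 13782 in WT, a log2 difference of 0.93 (SE 0.24, edgeR adjusted p = 0.0579). Pgc, Ren1 and Ddi1 had 0 counts in all libraries. edgeR called 0 of 6 tested pepsin-like proteases (1 higher and 0 lower at an unadjusted p under 0.05, 1 higher by DESeq2, 0 by limma-voom), with a median log2 difference of 0.03. Of 12 other cathepsins edgeR called 0 (4 higher and 0 lower at an unadjusted p under 0.05, 4 higher by DESeq2, 0 by limma-voom), with a median of 0.34. The MHC class II list, which marks the antigen-presenting cells where Ctse is known, had 0 of 14 genes called by edgeR (0 at an unadjusted p under 0.05, 0 by DESeq2, 0 by limma-voom); without WT replicate 2 edgeR called 2 lower. Its summed level ran from 1233 to 1286 CPM in KO and from 480 to 3832 CPM in WT, so the WT libraries spanned the KO range and beyond. The median log2 difference of this list was -0.34. Marker lists of B cells and of dendritic cells had medians of 0.86 over 9 tested genes and 0.58 over 11. edgeR called 0 genes of either list. At an unadjusted p under 0.05 the B cell list had 3 higher and 0 lower, and the dendritic cell list 1 higher and 1 lower. DESeq2 called 1 higher and 0 lower for B cells and 1 in each direction for dendritic cells.

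The noncoding gene BC018473 had 143, 180 and 205 counts in KO and 1, 0 and 1 in WT. All KO libraries stood far above all WT libraries, with the lowest KO level at 113 times the highest WT level, the widest such gap of the 6 genes. Levels were 7.27 ± 1.42 CPM in KO and 0.0352 ± 0.0305 CPM in WT (SD, n = 3), a ratio of 199.6 with a 95% counting interval of 55.0 to 1653. GENCODE places it at chr11:116752167-116759373 on the plus strand (GRCm38) and calls it antisense, a noncoding class. Its tissue of expression is not known well enough to state.

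**Figure D1:**
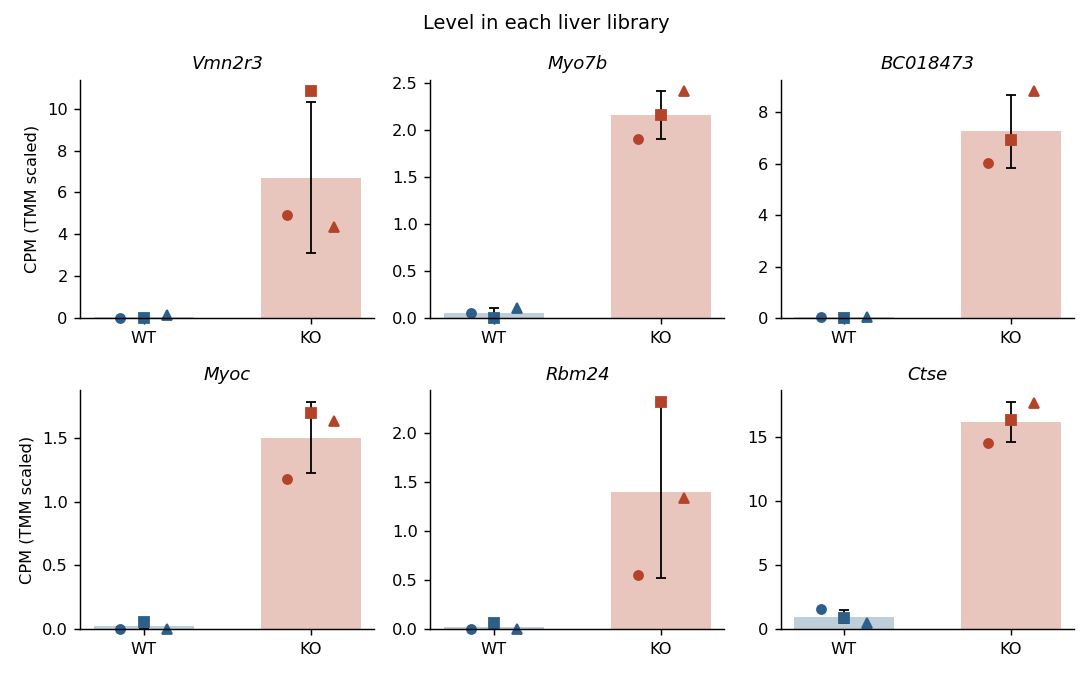
Level of each of the 6 genes in CPM (TMM-scaled, y axis) in the WT and KO libraries (x axis), with a circle, square and triangle for replicates 1, 2 and 3, bars at the mean and error bars of 1 SD, stopped at 0 where the SD exceeds the mean. In all 6 panels every KO point lies above every WT point, and Vmn2r3 and Rbm24 show the widest spread among KO libraries.

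All 6 genes had no overlap between groups, which is how they were picked; over the 12945 genes tested, 16.9% did not overlap with KO higher. All 6 passed the filter on low counts, and none could pass through its WT libraries alone. That holds for Ctse too, whose 9 counts in WT replicate 3 fell below the minimum count of 10. Among the 5 genes other than Ctse, 8 of 15 WT values were 0. The other 7 values were 1 to 3 counts, at which 1 read more or less moves a ratio by a large factor. The 3 WT libraries together held 3 counts of Vmn2r3 and 3 of Myo7b, each with an exact 95% Poisson interval of 0.619 to 8.77 counts. BC018473 had 2 (0.242 to 7.22), and Myoc and Rbm24 had 1 each (0.0253 to 5.57). Ctse had 53 (39.7 to 69.3). In whole liver, fewer cells that make an RNA and less of it per cell cannot be told apart.

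**Figure D2:**
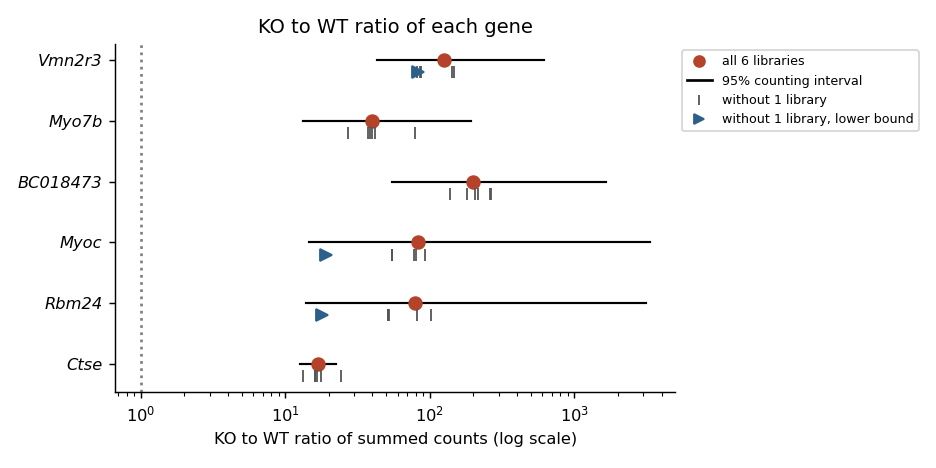
Ratio of summed KO to summed WT counts per TMM-scaled library size (log x axis) for each gene. A dot marks the ratio and a line its exact 95% counting interval. Ticks mark the values without 1 library, drawn as arrows where no WT count remained. The value at an arrow is set against the count floor given in the text and is no confidence limit. The interval of Ctse, with 53 WT counts, runs from 12.7 to 22.5, while that of Myoc, with 1 WT count, runs from 14.6 to 3315.

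The spread among KO libraries set the genes apart. For Vmn2r3 the coefficient of variation of KO levels was 53.5%, against 7.75% that counting alone would give, and for Rbm24 it was 63.2% against 17.0%. For Myo7b and Myoc the observed spread was near the counting spread, at 11.8% against 13.8% and 18.7% against 16.5%. BC018473 (19.6% against 7.54%) and Ctse (9.84% against 5.05%) lay between. KO replicate 1 was the lowest KO library for each gene except Vmn2r3, whose lowest was KO replicate 3. KO replicate 2 was highest for Vmn2r3, Myoc and Rbm24, and KO replicate 3 for Myo7b, BC018473 and Ctse.

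Per kilobase of exon the 6 genes were still low-abundance transcripts in KO libraries, apart from Ctse. Ctse reached 5.09 ± 0.501 CPM per kb, above 59.9% of the 12475 genes ranked by their KO level per kb. BC018473 followed at 1.33 ± 0.260 CPM per kb (above 29.0% of genes) and Myoc at 0.726 ± 0.135 (above 18.7%). Rbm24 at 0.401 ± 0.253, Vmn2r3 at 0.385 ± 0.206 and Myo7b at 0.326 ± 0.0386 CPM per kb had means that lay within the spread of Rbm24 and of Vmn2r3, though not within that of Myo7b, and no order among them can be read. The Vmn2r3 value is divided by the exons of 9 transcripts together, most of them outside the coding part of 2730 bases.

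A numeric form of the selection puts the 6 beside all other rows. At most 3 counts over the WT libraries and at least 10 in each KO library was met by 13 of 24421 rows (0.0532%), among them 5 members; Ctse failed on its WT counts. The mirror, at most 3 counts over the KO libraries and at least 10 in each WT library, was met by 4 rows (0.0164%), namely 4930412C18Rik, Sult2a7, Wif1 and 2610305D13Rik. A wider form, under 1 CPM in each WT library and at least 1 CPM in each KO library, was met by 98 rows (0.401%) and its mirror by 33 (0.135%). It held 4 members, since Rbm24 had 0.549 CPM in KO replicate 1 and Ctse had 1.52 CPM in WT replicate 1. Both screens use the values that chose the members, and they are given as description.

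The other 8 rows of the narrow screen were of mixed kinds. Ifi44l, an interferon-induced gene, had 141, 268 and 367 counts in KO and 1, 0 and 0 in WT, a ratio of 587 with a 95% counting interval of 105 to 23204. Dach2, a transcription cofactor, Aqp7, a glycerol channel of fat, and Eef1a2, the muscle and nerve form of a translation elongation factor, had no WT count. Against the floor of 3 counts over the group their KO to WT ratios were 22.2, 13.6 and 10.6. The lower 95% counting limits of the ratios were 17.7, 10.7 and 8.24. Just inside the screen was Dusp9, a phosphatase of MAP kinases, with 13, 11 and 15 counts in KO and 1 in each WT library. On chromosome 9, which holds Sesn3, lay 0 of the 12 rows of the narrow screen whose position is known, and 4 of 89 of the wider one (4.49%), 3 of 29 of its mirror (10.3%) and 1311 of 23334 rows in all (5.62%).

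**Figure D3:**
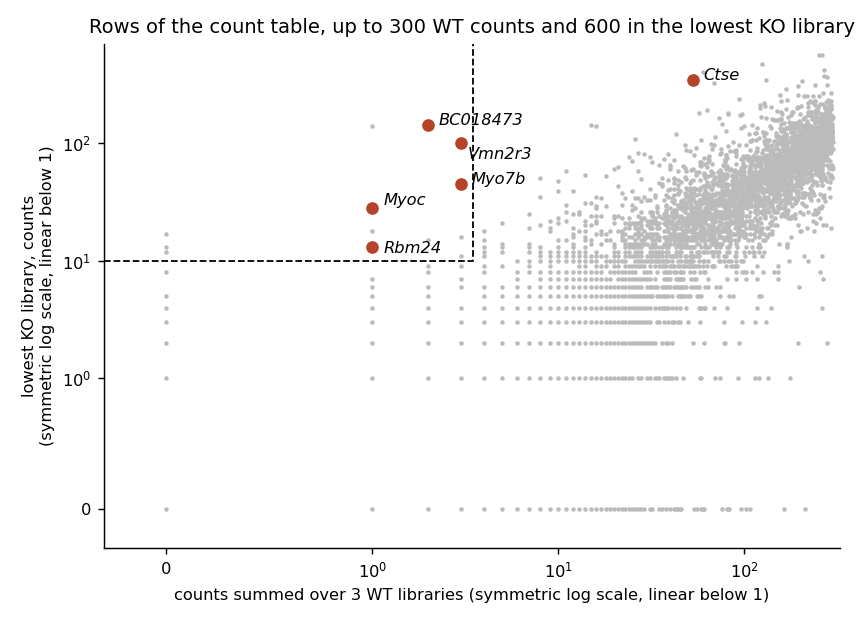
Each point is a row of the count table, with the summed counts of the 3 WT libraries on the x axis and the count of the lowest KO library on the y axis, the 6 genes named and a dashed box around the narrow screen. Vmn2r3, Myo7b, BC018473, Myoc and Rbm24 fall inside the box with 1 to 3 WT counts, and Ctse lies outside it with 53.

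Genes next to the members on the chromosome were mostly not called. The 3 nearest start sites on each side of every member that are rows here gave 36 genes, of which 22 could be tested and 9 had no count in any library. edgeR called 1 of the 22 higher and 0 lower, 4.55%, with a median log2 difference of -0.01. The called gene was St6galnac2, a sialyltransferase 57.3 kb from BC018473, with 50, 77 and 50 counts in KO and 13, 16 and 20 in WT (log2 difference 1.43, SE 0.34, edgeR adjusted p = 0.0488). It was not called without any 1 of the 6 libraries (edgeR adjusted p up to 0.180), with no low-count filter or by limma-voom (up to 0.0558). Its neighbour St6galnac1, 23.3 kb from BC018473, had 5, 7 and 3 counts in KO and none in WT. Against the floor of 3 counts over the group that was a ratio of 3.78.

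The nearest genes to the other members had no count or were not called by edgeR. Vmn2r2 and Vmn2r4 beside Vmn2r3, Gpr17 beside Myo7b, and Avpr1b beside Ctse had no count. Iws1, a transcription elongation factor 30.8 kb from Myo7b, had 473, 436 and 388 counts in KO and 303, 374 and 289 in WT, a log2 difference of 0.01. Vamp4, a vesicle fusion protein 68.6 kb from Myoc, was lower by a log2 difference of -0.77 that edgeR did not call (edgeR adjusted p = 0.0790) and DESeq2 did (DESeq2 adjusted p = 0.0204); without WT replicate 1 edgeR called it too (edgeR adjusted p = 0.0493). Rab7b, a lysosomal GTPase 50.4 kb from Ctse, had 261, 243 and 199 counts in KO and 125, 31 and 126 in WT (log2 difference 0.94, SE 0.44, edgeR adjusted p = 0.228). Beside Rbm24, Stmnd1 had 1 count in all and Cap2 had 1, 1 and 0 against 1, 1 and 4.

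**Figure D4:**
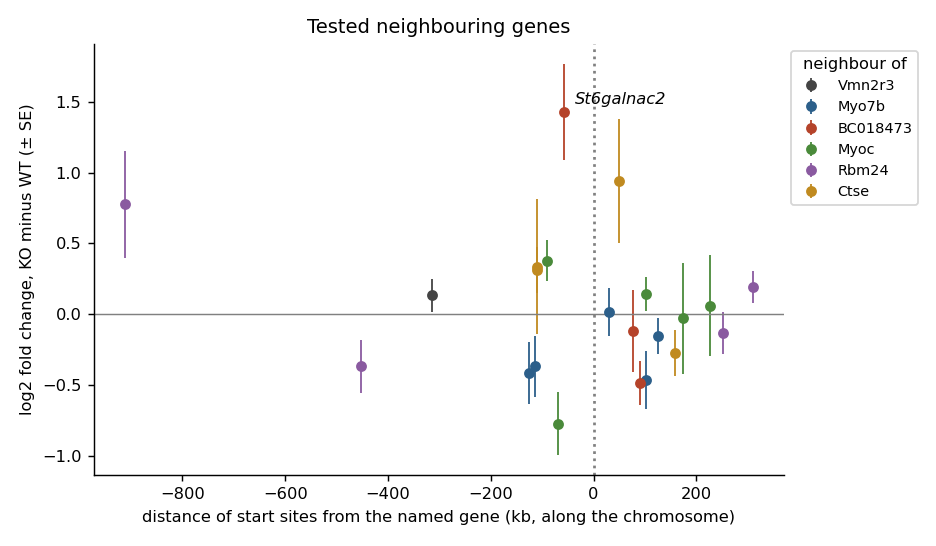
Log2 difference between KO and WT with its SE (y axis) of the 22 tested neighbours against their distance in kb from the member's start (x axis). Points scatter around a median of -0.01, and the called gene, St6galnac2, stands at 1.43.

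Over the lists of genes related to the 5 coding members, 138 genes were tested, 17 called higher (12.3%) and 6 lower (4.35%). Outside the p53 list the numbers were 4 higher and 6 lower of 116, or 3.45% and 5.17%, close to the 3.36% and 3.58% of all genes tested. Leaving out KO replicate 1, KO replicate 2, KO replicate 3 or WT replicate 3 turned the 17 higher into 4, 1, 5 and 7, and the 6 lower into 1, 0, 0 and 2.

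Marker lists of the tissues where the members are best known were in part at 0. For skeletal and heart muscle, the known home of Rbm24 and a site of Myoc, 9 of 20 genes had no count in any library, among them Myh2, Myh4, Myh7, Myh6, Ttn and Mb, and the list summed to 0.904 to 1.56 CPM in KO and 1.10 to 1.41 CPM in WT. The other 11 had a few counts. Mylpf, a myosin light chain, had 10, 11 and 7 counts in KO and 7, 8 and 6 in WT, and Acta1, the muscle actin, had 9, 4 and 4 counts in KO and 0 in each WT library, both named after their values were seen. For stomach, the home of Ctse, 11 of 15 genes were at 0, including Gkn1, Gkn2, Tff1, Muc5ac and Atp4b, and the list summed to 2.02 to 2.91 CPM in KO and 1.26 to 5.35 CPM in WT. Most of that sum was Atp4a, a proton pump subunit of parietal cells, with 66, 48 and 45 counts in KO and 21, 87 and 28 in WT.

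Part of the lists for the tissues of Myo7b and Vmn2r3 was at 0 too. For kidney tubule 9 of 15 genes were at 0, including Umod, Slc34a1 and Slc12a1, and the list sum was lower in KO (0.347 to 1.14 CPM) than in WT (1.41 to 4.53 CPM). Most of each WT sum came from Acsm2 and Lrp2, the 2 genes of the list that were tested. Lrp2 had 18, 2 and 2 counts in KO and 4, 57 and 17 in WT (edgeR adjusted p = 0.268). Acsm2, an acyl-CoA synthetase of the tubule, fell from 22, 20 and 32 counts to 1, 3 and 4 (edgeR adjusted p = 0.0154), a call lost without KO replicate 1, KO replicate 2 or WT replicate 3. For intestinal epithelium 8 of 21 were at 0, including Cdx1, Sis, Alpi and Muc2; its sums of 286 to 341 CPM in KO and 303 to 341 CPM in WT overlapped. The receptor Lgr5, known from intestinal stem cells, fell from 77, 70 and 111 counts to 56, 48 and 51 (edgeR adjusted p = 0.0473), a call kept only without WT replicate 2 among the 6 fits without 1 library and lost with library size only, with no low-count filter and by limma-voom. Krt20, a keratin of intestinal epithelium named after its values were seen and too low to be tested, had 13, 8 and 8 counts in KO and 0 in each WT library. For olfactory and vomeronasal neurons 4 of 13 were at 0, with Trpc2 and Cnga2 among them. Sums were 14.7 to 17.9 CPM in KO and 17.5 to 26.9 CPM in WT. Syt1, the most abundant tested gene of that list, had 280, 156 and 237 counts in KO and 251, 381 and 381 in WT. Its log2 difference was -0.99, while the median over the 5 tested genes was 0.31, so the sums do not give the direction of the list. Of these 5 genes edgeR called 0 (1 higher and 1 lower at an unadjusted p under 0.05). Exocrine pancreas had 11 of 14 genes at 0 and sums of 7.82 to 8.87 CPM in KO and 14.1 to 57.8 CPM in WT. Most of each pancreas sum was Cela1, with 174, 193 and 198 counts in KO and 257, 979 and 409 in WT (edgeR adjusted p = 0.0607).

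Markers of cells that the liver does hold moved in part with the genotype. The 14 hepatocyte markers all had counts and summed to 113728 to 139976 CPM in KO and 112896 to 180280 CPM in WT. Albumin (Alb) was the most abundant of them, while Ass1, an enzyme of the urea cycle that hepatocytes are known to make in quantity, had only 12, 15 and 23 counts in KO and 9, 13 and 10 in WT. With Ass1 that low and the globins at 0 in these tables, a 0 or a low count of a marker need not mean that its RNA was absent. Of the 14 edgeR called 1, Cyp2e1, lower, though in none of the 6 fits without 1 library. Stellate cell and myofibroblast markers summed to 1022 to 1346 CPM in KO and 342 to 568 CPM in WT, with 5 of 14 called higher and 0 lower, namely Lum, Col1a1, Col1a2, Col3a1 and Dcn, all genes of the collagen matrix (0 called without KO replicate 1, KO replicate 2 or WT replicate 3). Most of each stellate sum was Col3a1, Dcn, Col1a1 and Col1a2. Of the 14 genes 9 were not called, and the median log2 difference over the list was 1.05. Of 17 macrophage markers Cd9, Trem2 and Clec4f were called higher, 3 in all (0 without KO replicate 1 or 2, 1 without KO replicate 3 or WT replicate 3, and 9 without WT replicate 1). Of 11 cholangiocyte markers 1 was called higher, the membrane protein Prom1. It had 447, 376 and 471 counts in KO and 13, 17 and 24 in WT (edgeR adjusted p = 0.00183). Prom1 stayed called in all 6 fits without 1 library. Over all 12945 genes tested, 3.36% were called higher and 3.58% lower. Macrophage sums were 3052 to 3452 CPM in KO and 1222 to 3489 CPM in WT, and cholangiocyte sums were 137 to 158 CPM in KO and 96.9 to 140 CPM in WT. Erythroid markers summed to 33.5 to 52.0 CPM in KO and 114 to 263 CPM in WT. Most of each erythroid sum was Alas2, at 31.0 to 46.4 CPM in KO and 108 to 253 CPM in WT. Of the 4 tested genes of the list edgeR called 1, lower, with a median log2 difference of -1.26. Alas2, the erythroid enzyme of heme synthesis, fell 4.19-fold (edgeR adjusted p = 0.0235), a call lost without KO replicate 1, 2 or 3. Hba-a1, Hba-a2, Hbb-bs and Hbb-bt were listed at 0 in every library. The part that any of these cells had in the members' counts was not tested.

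**Figure D5:**
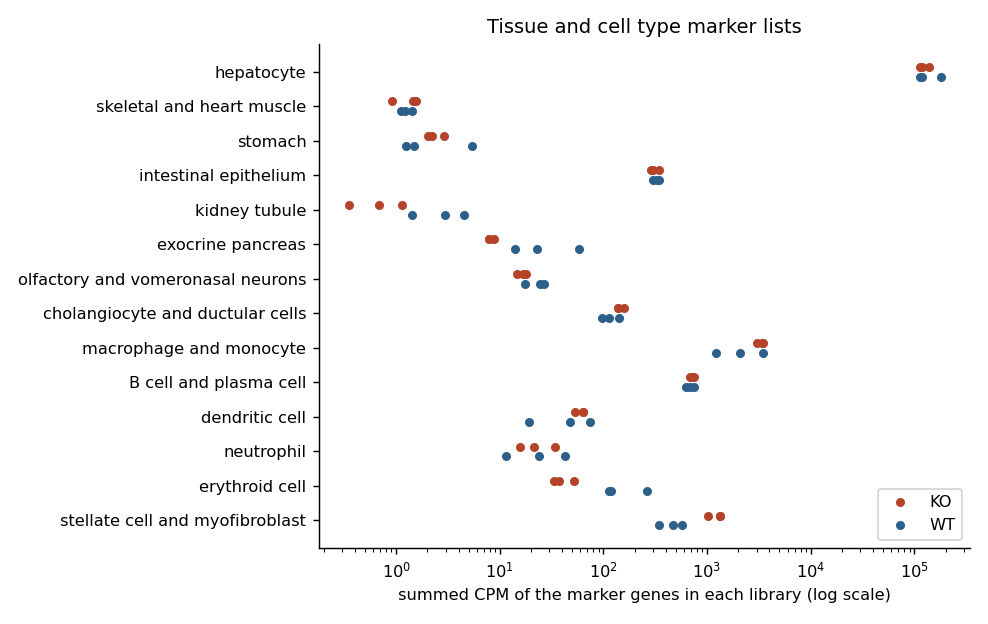
Summed level in CPM (log axis) of each marker list in every library, KO and WT apart. The stellate sum is higher in every KO library (1022 to 1346 CPM) than in every WT library (342 to 568 CPM). The kidney, pancreas and erythroid sums are lower, and the muscle and stomach sums overlap at a few CPM or less. Most of each pancreas sum is Cela1, most of each erythroid sum is Alas2, and most of each WT kidney sum is Acsm2 and Lrp2.

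Likeness was measured as the root mean square difference of log2 CPM (prior count 2), each gene centred on its own mean over the 6 libraries, against 12418 named genes. Myoc was closest to Gria3, a glutamate receptor subunit (0.32 log2 units), which had 51, 57 and 69 counts in KO and 3, 3 and 2 in WT. Gria3 was also closest to Ctse (0.49), followed by Cyp4a31 (0.53). Myo7b was closest to Acot2, a mitochondrial acyl-CoA thioesterase (0.35), and to Prom1 (0.37), which was also second for Myoc (0.42). Rbm24 was closest to Cyp4a14, a fatty acid omega-hydroxylase (0.44), with 1432, 6765 and 4752 counts in KO and 392, 299 and 336 in WT, so that both were lowest in KO replicate 1 and highest in KO replicate 2. Vmn2r3 was closest to the hormone gene Fgf21 (0.60) and the imprinted RNA H19 (0.71), and BC018473 to Ifi44l (0.47) and Fgf21 (0.60).

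Among the members themselves Myoc and Rbm24 were closest (0.43), followed by Myoc and Ctse (0.51) and Myo7b and Myoc (0.55), and BC018473 and Rbm24 were farthest apart (1.32). The prior count shrinks the differences of genes with few reads, so a low gene and an abundant gene can match while their ratios differ. The measure uses the same 6 libraries that chose the members and is a description.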

How the data were processed

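The members and the gene lists were chosen with earlier results of these data known, and they are not independent evidence of a direction. The values the authors deposited are raw read counts for each gene symbol, without normalization, in 1 column per library. Per the submitters' processing notes, the tools were STAR 2.5, Subread 1.5.3 with featureCounts, and edgeR 3.20.8, and the build was mm10. Their settings, the annotation, the use of strand and what was done with multi-mapping reads are not stated there.

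Counts were fitted with edgeR 4.0.16 in R 4.3.3 (filterByExpr with a minimum count of 10 and a minimum total of 15, TMM factors, robust quasi-likelihood F-test of KO against WT, two-sided, Benjamini-Hochberg adjustment over 12945 genes, threshold 0.05). The fit was tested on simulated data. CPM values use the TMM-scaled library size. For the 6 members no test was made. Their ratios are of summed counts per scaled library size, with exact (Clopper-Pearson) 95% intervals that cover counting error only. The labels list separate samples without naming animals, so a p-value reflects the spread between these samples, which may be technical. Replicates were numbered in accession order and pair no samples. Positions, exon lengths and transcripts came from GENCODE mouse release 21 (GRCm38, the assembly of mm10), with 23334 of 24421 symbols matched to 1 gene. Transcript copies were searched with 50-base words and blastn.

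Genes other than the members were named by a rule: up to 4 called genes by smallest p and the most abundant tested gene of each list, the called and nearest neighbours, the 2 genes closest in pattern to each member, and up to 8 genes of a screen on low WT counts. Not every gene that the rule allows is named. Outside it, Gnao1, Gldn, Rbm38, Mylpf, Acta1, Krt20, Ass1, the Myo7b partners, the globins and the genes under other observations were named after their values were seen. Alternatives were DESeq2 1.42.0, limma-voom (limma 3.58.1), RLE factors, library size only, no robust dispersion, no low-count filter, a minimum of 1 CPM in 3 libraries, a ratio of mean CPM with 0.5 counts added, and leaving out each library.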

Additional observations from a re-analysis of the deposited data

How the results depend on the processing

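The numbers of genes called depended on the scaling and the tool. Against 435 higher and 463 lower, library size without TMM scaling gave 707 higher and 258 lower, and DESeq2 gave 921 and 1061. Leaving out 1 library gave 48 to 504 higher and 53 to 475 lower, with 144 and 151 without KO replicate 1, 48 and 53 without KO replicate 2, 130 and 131 without KO replicate 3 and 132 and 160 without WT replicate 3. For the related genes, 17 higher and 6 lower became 26 and 3 with library size only, 34 higher by DESeq2, and 1 to 23 higher and 0 to 7 lower without 1 library. The 1 neighbour called became 0 with no low-count filter, 0 by limma-voom, 2 by DESeq2 and 0 to 1 without 1 library. The cause was not tested. RLE factors, a filter of 1 CPM in 3 libraries and no robust dispersion kept all 5 of these counts within 1.5 times.

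The members were picked for being higher in KO, so their direction under the alternatives was fixed in advance and is no result. Only the size of the ratio is described. The alternatives run on the ratios were RLE factors, library size only, 0.5 counts added and leaving out each library. With 0.5 counts added to each library and a ratio of mean CPM, the ratio of Myoc fell from 83.2 to 32.7, of Rbm24 from 78.6 to 30.4, of BC018473 from 199.6 to 117, of Vmn2r3 from 126 to 83.4, of Myo7b from 39.6 to 27.1 and of Ctse from 16.8 to 16.4, because few WT counts are set against the added counts. With library size only the ratios were 145 for Vmn2r3, 45.7 for Myo7b, 231 for BC018473, 96.1 for Myoc, 90.9 for Rbm24 and 19.4 for Ctse. Without 1 library the ratio ran from 82.1 to 147 for Vmn2r3, 27.2 to 78.3 for Myo7b and 137 to 263 for BC018473. It ran from 19.1 to 91.9 for Myoc, 18.0 to 102 for Rbm24 and 13.3 to 24.2 for Ctse. The lowest values of Myoc and Rbm24 are set against the floor of 3 counts, with no WT count left. With 1 to 3 WT counts, depth limits how large the ratios of the 5 genes other than Ctse can be said to be. No paired analysis was possible because replicates were numbered in accession order and pair no samples.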

Other observations

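Within the MHC class II list, chosen for the antigen-presenting cells where Ctse is known, H2-Eb1 stood apart in 1 library. It had 101 counts in KO replicate 1, 4405 in KO replicate 2 and 1971 in KO replicate 3, while H2-Aa had 8148, 5634 and 6260 counts in the same libraries. In the WT libraries H2-Eb1 had 5156, 970 and 2584 counts and H2-Aa had 15154, 1468 and 7914. H2-DMb2 ran the other way among KO libraries, with 210, 35 and 110 counts. The labels give C57BL/6 for all 6 samples, and whether their strain background was uniform was not tested. Ctse was lowest among KO libraries in KO replicate 1, at 343 counts, and the 3 KO libraries lay within 1.22 times of each other.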
